A study of Homo sapiens with 10 samples.

Results

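The genes described here encode proteins that add, read or remove ubiquitin chains on the TNF receptor complex. Members were all probe sets of the deposited table that its annotation gives to RBCK1, RNF31, SHARPIN, CYLD, TNFAIP3, SPATA2, TRAF2, TAB1, TAB2 or TAB3 and to no other gene. That gave 23 of 54675 probe sets, which stood for 8 of the 10 genes. SPATA2 and TRAF2 had no probe set of their own and were not analysed here, and 2 probe sets shared with another gene, for RNF31 with IRF9 and for TAB1 with LOC100506472, were left out.

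RNA was measured on Affymetrix arrays from 5 lines of MDA-MB-231, an established human triple-negative breast cancer line, with 2 arrays for each line. The lines T2 and T3 (labelled resistant) and T6 and T8 (labelled sensitive) were tumour cells taken from xenografts that had regrown in SCID mice after SM-164 at 5 mg/kg, given intravenously on 5 days a week for 2 weeks. SM-164 is a Smac mimetic, a compound that antagonises the IAP proteins. The last line was the parental cells, kept in culture and labelled sensitive. No untreated xenograft was measured, so growth in the mouse and the drug cannot be told apart, and SCID hosts lack mature T and B lymphocytes but keep other leukocytes, vessels and fibroblasts. Nothing in the labels states whether the pair of arrays of each line stems from independent cultures. A p-value over arrays therefore covers only array-to-array spread, possibly technical in origin.

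When TNF binds its receptor, ubiquitin ligases gather at the receptor tail and build ubiquitin chains there. RBCK1 (HOIL-1), RNF31 (HOIP) and SHARPIN form LUBAC, the ligase that builds linear chains, in which RNF31 is the catalytic subunit. TAB2 and TAB3 bind lysine-linked chains and, with TAB1, hold and activate the kinase TAK1, which passes the signal on to NF-kB and MAP kinases. CYLD cuts linear and lysine-linked chains and is brought to LUBAC by SPATA2. TNFAIP3 (A20) edits or shields the chains and is itself a target gene of NF-kB. Smac mimetics make the cellular IAP ligases of this complex degrade, after which TNF can lead to cell death.

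Promoter sequence is shown for TNFAIP3, the member with the largest difference between lines, and for NFKBIA, the inhibitor of NF-kB whose gene is an NF-kB target too, since both are held to answer to the same factor. The stretches run from 250 bases before to 50 bases after a transcript start, 5′ to 3′ on the strand of the gene, from RefSeq on build GRCh38.p14. TNFAIP3 lies at chr6:137867009-137867308 on the plus strand and NFKBIA at chr14:35404700-35404999 on the minus strand. Capitals mark matches to the kappa-B decamer consensus, the binding motif of NF-kB, searched on both strands.
TNFAIP3: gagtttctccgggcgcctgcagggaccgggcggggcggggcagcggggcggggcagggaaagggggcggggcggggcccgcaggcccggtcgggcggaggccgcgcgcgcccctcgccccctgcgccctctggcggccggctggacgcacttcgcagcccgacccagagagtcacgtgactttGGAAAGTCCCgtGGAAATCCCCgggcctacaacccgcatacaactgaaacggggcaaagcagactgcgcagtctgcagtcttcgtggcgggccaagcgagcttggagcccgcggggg
NFKBIA: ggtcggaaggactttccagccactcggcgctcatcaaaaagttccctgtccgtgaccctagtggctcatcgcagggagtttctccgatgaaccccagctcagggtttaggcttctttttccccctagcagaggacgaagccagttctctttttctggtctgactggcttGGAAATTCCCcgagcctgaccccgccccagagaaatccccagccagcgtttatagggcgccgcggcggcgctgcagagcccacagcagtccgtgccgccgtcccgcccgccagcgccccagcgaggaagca
TNFAIP3 had 2 matches, GGAAAGTCCC beginning 67 bases before the transcript start and GGAAATCCCC beginning 55 bases before it, and NFKBIA had 1, GGAAATTCCC, 81 bases before its own. The start used for TNFAIP3 lies inside the bounds that RefSeq gives for the whole gene, so other transcripts of TNFAIP3 begin farther upstream, whereas that of NFKBIA is the outer end of its gene. Of 35116 RefSeq promoters of this length, 11.27% held at least 1 match and 2.04% held 2 or more. Among the other members, CYLD had 1 match in each of 2 of its 3 promoters and TAB2 had 3, of which 2 overlap each other, in 1 of its 2 promoters. RBCK1, RNF31, TAB1 and TAB3 had no match in this window. SHARPIN had no promoter entry and was not searched. Other NF-kB feedback genes, read as a list further on, were searched in the same way. NFKB1, NFKB2 and NFKBIB held a match, while ICAM1, TNF, TNFAIP2 and ZC3H12A held none in this window. A match is a run of letters and was not tested for binding.

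Values are log2 intensities as the authors deposited them, and a difference of 1 on that scale is a doubling. All 8 genes passed the filter (log2 5 on at least 2 arrays), each through its brightest probe set on average, and were tested with limma among 14929 genes. A call means a Benjamini-Hochberg adjusted p under 0.05. Array medians lay between 5.43 and 5.57, and over genes the arrays of a line correlated at 0.996 to 0.998, against 0.972 to 0.995 between lines. The MDA-MB-231 markers VIM, CD44, EGFR and AXL averaged 12.54 to 12.82 on resistant, 12.44 to 12.62 on sensitive and 12.54 to 12.55 on parental arrays, and the low markers ESR1, PGR, CDH1 and ERBB2 averaged 5.94 to 6.38, 6.05 to 6.31 and 6.26 to 6.34 on the same groups, with PGR below log2 5 on all arrays.

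Against parental cells, the mean of the 4 tumours was higher for TNFAIP3, RBCK1 and TAB2 and lower for TAB3. The other 4 genes, RNF31, SHARPIN, CYLD and TAB1, did not pass the test. Over all genes tested, 42.3% were called in this comparison, 25.5% higher and 16.8% lower, so 4 of 8 members called is close to that background. The median difference was 0.115 over the members and 0.002 over all genes. Among the 5 lines at large, 6 of 8 members differed in limma's F test, all but RNF31 (adjusted p = 0.554) and TAB1 (adjusted p = 0.49), beside 57.1% of all genes. The tumour arrays lay wholly above the parental arrays for RBCK1 and TNFAIP3 and wholly below for TAB3, 3 of 8 members against 28.2% of all genes, 15.7% above and 12.4% below. The samples are bulk, so a change in the share of some cells and a change of RNA per cell cannot be told apart.

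**Figure D1:**
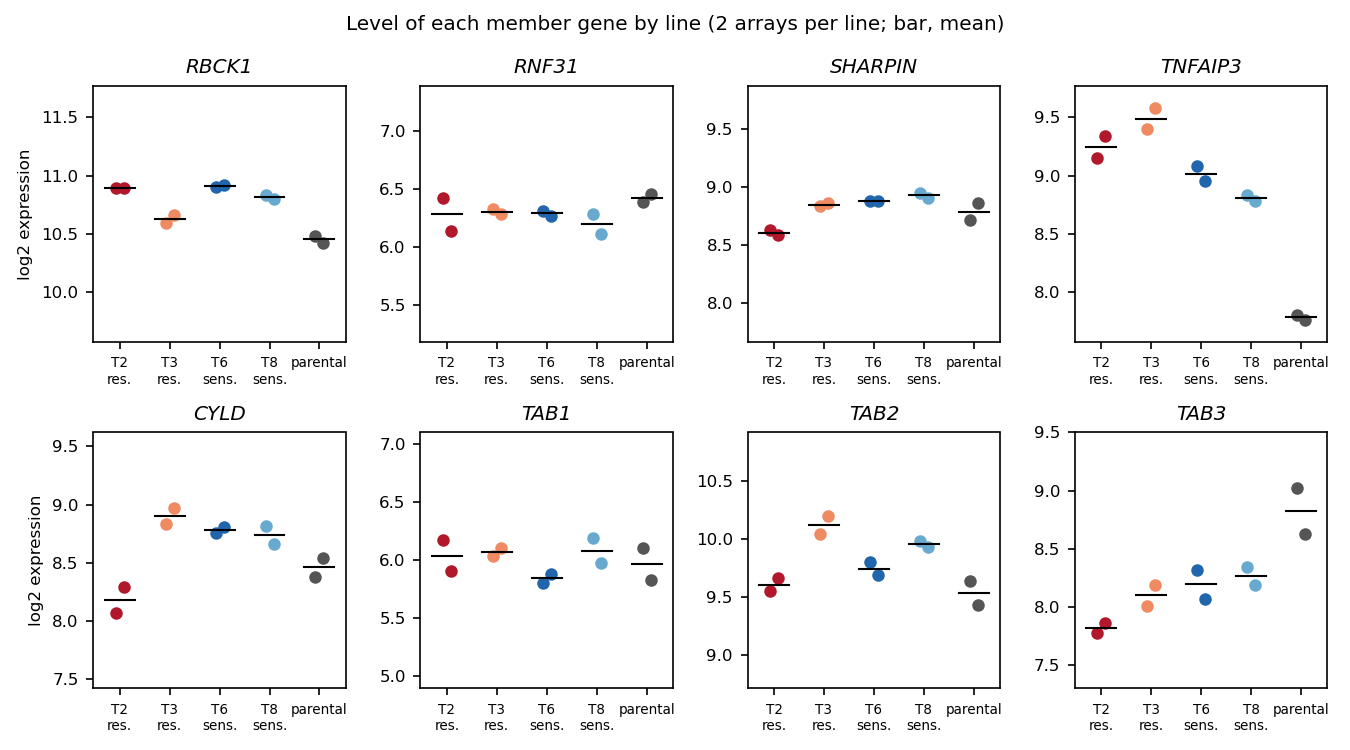
Log2 expression (vertical axis) of each member gene on each array by line, from its probe set of highest mean; points are arrays, 2 per line, bars are line means, and all panels span the same log2 width. TNFAIP3 lies at 8.78 to 9.58 on the tumour arrays and at 7.76 and 7.80 on the parental arrays, while the arrays of RNF31 and TAB1 overlap between lines.

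TNFAIP3, the ubiquitin editor known as A20, had the widest range of line means of all members. On the resistant arrays it stood at 9.15 and 9.34 in T2 and at 9.40 and 9.58 in T3. The sensitive tumours had 9.08 and 8.95 in T6 and 8.83 and 8.78 in T8, and the parental cells had 7.80 and 7.76. Every tumour array was above both parental arrays by about 1 log2 unit or more, and the tumours followed each other in the order T3, T2, T6, T8. Averaged over the tumours the difference from parental cells was 1.36 ± 0.07 (SE, adjusted p = 1.6e-09), a fold of 2.56, and 1.37% of all tested genes differed by at least as much. T2 differed by 1.46, T3 by 1.71, T6 by 1.23 and T8 by 1.02, each ± 0.09, with adjusted p-values from 2.28e-09 to 6.37e-07. These comparisons share the parental arrays. In the order of lines only the last step, T8 above parental cells, passed the test. T3 exceeded T2 by 0.25 (adjusted p = 0.0521), T2 exceeded T6 by 0.23 (adjusted p = 0.128) and T6 exceeded T8 by 0.21 (adjusted p = 0.154).

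A second TNFAIP3 probe set, 202643_s_at, gave the same picture at a lower signal. Its values were 8.29 and 8.51 in T2, 8.73 and 8.75 in T3, 8.09 and 7.95 in T6, 7.89 and 7.70 in T8, against 6.98 and 6.73 in parental cells. Tumours again lay above parental cells on every array, by 1.38 ± 0.09 on average (SE, adjusted p = 1.05e-08 over probe sets). The 2 probe sets of this gene correlated at 0.99 over the 10 arrays, which share their libraries.

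Of the LUBAC genes, only RBCK1 passed the test between tumours and parental cells. RBCK1 is the subunit that also carries its own ligase domain. It stood at 10.89 and 10.89 in T2, 10.59 and 10.66 in T3, 10.90 and 10.92 in T6, and 10.83 and 10.80 in T8, against 10.48 and 10.42 in parental cells. T3 was the lowest of the tumours, and no tumour array reached down to the parental ones. The mean difference was 0.36 ± 0.05 (SE, adjusted p = 2.42e-05, fold 1.28), a size met or passed by 20.9% of tested genes. Single tumours differed by 0.44 in T2, 0.46 in T6 and 0.37 in T8, each ± 0.06 with adjusted p-values from 3.48e-05 to 0.000199. T3 differed by 0.17 ± 0.06 (adjusted p = 0.0346), and that call was lost under 11 of the 18 alternatives run, 7 of which left out 1 array: parental replicate 1 or 2, T3 replicate 2 or either array of T6 or T8, with adjusted p-values from 0.0566 to 0.197. It was 0.08 with quantile normalisation repeated (adjusted p = 0.268) and 0.05 with the mean over probe sets (adjusted p = 0.586).

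The probe sets of RBCK1 did not all agree. For 207713_s_at the tumours exceeded parental cells by 0.47 ± 0.07 (SE, adjusted p = 0.000149), with 8.25 and 8.34 in T2, 7.62 and 7.78 in T3, 8.09 and 8.04 in T6, 8.06 and 8.0 in T8, against 7.58 and 7.53 in parental cells. For 229920_at the difference was -0.02 (adjusted p = 0.869), with tumour arrays between 6.79 and 7.18 and parental arrays at 6.83 and 7.19. Over the 10 arrays these probe sets correlated with the brightest one at 0.94 and 0.27.

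RNF31, the catalytic subunit, had line means between 6.19 and 6.43. Its brightest probe set had 6.42 and 6.14 in T2, 6.33 and 6.28 in T3, 6.31 and 6.27 in T6, 6.28 and 6.11 in T8, against 6.39 and 6.46 in parental cells. Tumours minus parental cells came to -0.16 ± 0.10 (SE, adjusted p = 0.217), with a 95% interval of -0.37 to 0.05. The other probe set, 225122_at, had 6.33 and 6.21 in T2 and 6.21 and 6.30 in T3, against 5.99 and 5.80 in T6 and 6.05 and 6.07 in T8, with parental cells at 6.14 and 6.06. The pair correlated at only 0.15 over the arrays, and the brightest one is of a class (_x_at) that can bind other transcripts.

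SHARPIN, the adaptor subunit, has 1 probe set, with 8.63 and 8.59 in T2, 8.84 and 8.86 in T3, 8.88 and 8.88 in T6, 8.95 and 8.91 in T8, against 8.72 and 8.86 in parental cells. T2 was the lowest line, and the parental arrays lay inside the range of the tumours. The difference of tumours from parental cells was 0.03 ± 0.06 (SE, adjusted p = 0.738), with a 95% interval of -0.10 to 0.16, and no single tumour passed the test against parental cells.

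CYLD, the deubiquitinase, moved in opposite directions in the resistant tumours. It stood at 8.07 and 8.29 in T2 and at 8.83 and 8.97 in T3. The sensitive tumours had 8.76 and 8.81 in T6 and 8.82 and 8.66 in T8, and parental cells had 8.38 and 8.54. T2 lay below the parental arrays and the other tumours above them. Against parental cells T2 differed by -0.28 (adjusted p = 0.0413), T3 by 0.44 (adjusted p = 0.00267), T6 by 0.32 (adjusted p = 0.0207) and T8 by 0.28 (adjusted p = 0.0319), each ± 0.10 (SE). Averaged over the tumours the difference was 0.19 ± 0.08 and did not pass (adjusted p = 0.0636). T2 minus T3 came to -0.72 ± 0.10 (adjusted p = 4.91e-05), a direct test between the resistant lines.

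The single CYLD calls against parental cells depended on arrays and on processing. T2 minus parental was -0.17 without T2 replicate 1 (adjusted p = 0.272), -0.20 without parental replicate 2 (adjusted p = 0.25) and -0.28 without either T6 array (adjusted p = 0.0626 and 0.0629), and it was -0.03 when less specific probe sets were left out (adjusted p = 0.923). T6 minus parental was 0.25 without parental replicate 1 (adjusted p = 0.123), 0.35 without T6 replicate 1 (adjusted p = 0.0731) and 0.30 without T6 replicate 2 (adjusted p = 0.124). T8 minus parental was 0.21 without parental replicate 1 (adjusted p = 0.176) and 0.20 without T8 replicate 1 (adjusted p = 0.238). With the mean over probe sets T3 minus parental was 0.20 (adjusted p = 0.127) and T6 minus parental 0.21 (adjusted p = 0.117), and with quantile normalisation repeated T8 minus parental was 0.14 (adjusted p = 0.217). The mean over tumours passed without T2 replicate 1, at 0.22 (adjusted p = 0.022), and without T3 replicate 1, at 0.21 (adjusted p = 0.0486).

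CYLD has 7 probe sets, of which 60084_at stayed below the filter. In the 4 brightest, T2 had the lowest line mean: 8.18, 6.91, 6.68 and 6.71 in T2 against 8.46, 6.93, 6.81 and 6.98 in parental cells for 221903_s_at, 213295_at, 221905_at and 39582_at. For 213295_at the T2 and parental means all but coincided. T3, T6 and T8 had 7.45, 7.36 and 7.44 on 213295_at, and tumours exceeded parental cells there by 0.36 (adjusted p = 0.0158). The other 3 probe sets spanned less or were dim: 214272_at had line means from 6.0 to 6.16, and 222142_at and 60084_at, near the filter, had line means from 4.41 to 5.04. With the brightest probe set the others correlated at 0.08 to 0.95 over the arrays.

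**Figure D2:**
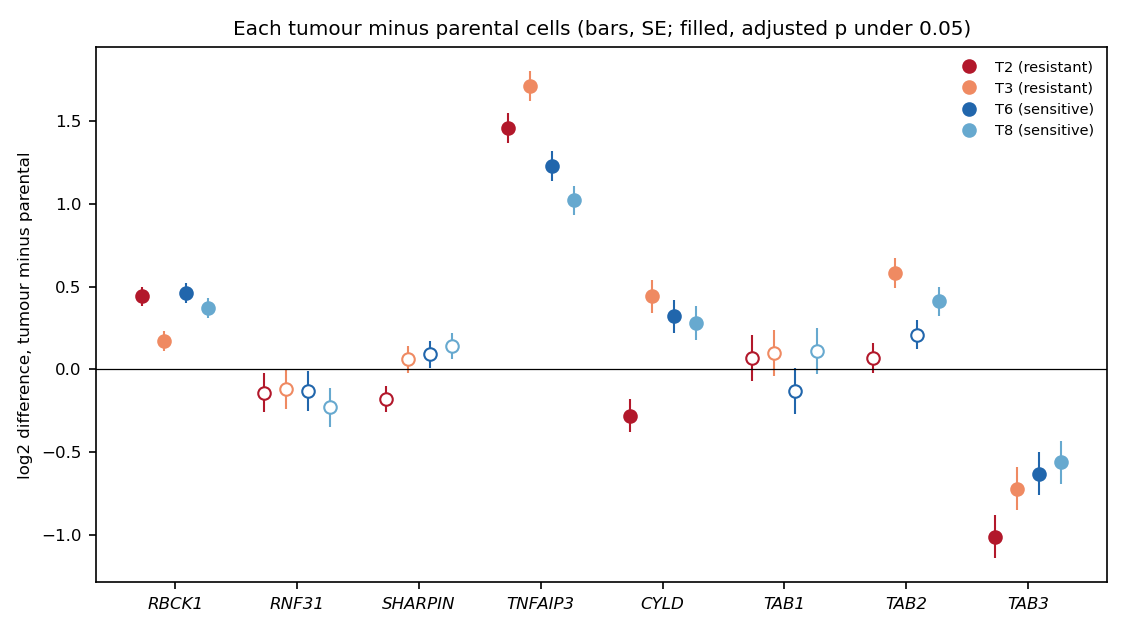
Log2 difference of each tumour from parental cells (vertical axis) for the 8 member genes; points are limma estimates, bars their SE, filled points have an adjusted p under 0.05, and the 4 tumours share the 2 parental arrays. TNFAIP3 is higher in each tumour (1.02 to 1.71), TAB3 lower in each (-0.56 to -1.01), and CYLD is -0.28 in T2 and 0.44 in T3.

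TAB3, a chain-reading adaptor of TAK1, was the only member called lower in the tumours. On its bright probe set, 227357_at, it had 7.78 and 7.86 in T2, 8.01 and 8.19 in T3, 8.32 and 8.07 in T6, and 8.34 and 8.19 in T8, against 9.02 and 8.63 in parental cells. No tumour array came up to the lower parental array, although the parental arrays themselves lay apart (SD 0.27, n = 2). The mean difference was -0.73 ± 0.10 (SE, adjusted p = 3.39e-05), a fold of 0.603, and 5.33% of tested genes differed by at least as much. T2 differed by -1.01, T3 by -0.72, T6 by -0.63 and T8 by -0.56, each ± 0.13, with adjusted p-values from 1.83e-05 to 0.00236. In the order of lines, only parental cells above T8 passed the test.

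The remaining 3 TAB3 probe sets were below the filter on all lines. Their line means ran from 3.90 to 4.82, and tumours minus parental cells came to -0.49, -0.23 and -0.18. Of these, 1552928_s_at had an adjusted p of 0.0103 when no filter was set and the other pair had 0.156 and 0.241. The probe sets correlated with 227357_at at 0.51 to 0.86. Averaging all 4 probe sets made the T6 difference -0.30 (adjusted p = 0.0719).

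TAB2, the relative of TAB3 with the same role, went the other way. Its values were 9.55 and 9.66 in T2, 10.04 and 10.20 in T3, 9.80 and 9.69 in T6, and 9.98 and 9.93 in T8, against 9.64 and 9.43 in parental cells. T3 and T8 lay above the rest, while T2 overlapped the parental arrays. The mean difference was 0.32 ± 0.07 (SE, adjusted p = 0.00161, fold 1.25), and 25.5% of tested genes differed by at least as much. Single tumours differed by 0.58 in T3 (adjusted p = 8.32e-05) and 0.41 in T8 (adjusted p = 0.0014), while 0.21 in T6 (adjusted p = 0.0768) and 0.07 in T2 (adjusted p = 0.618) did not pass, each ± 0.09. Without parental replicate 2 the mean difference was 0.21 and did not pass (adjusted p = 0.0758), and without parental replicate 1 T6 passed at 0.31 (adjusted p = 0.0218). A second probe set, 210284_s_at, gave 0.35 ± 0.07 (adjusted p = 0.000942) and correlated at 0.98 with the first; the third, 1561300_at, stayed between 3.34 and 3.72 on all arrays.

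TAB1, the subunit that activates TAK1, had 6.17 and 5.90 in T2, 6.03 and 6.10 in T3, 5.80 and 5.88 in T6, and 6.19 and 5.97 in T8, against 6.10 and 5.83 in parental cells. Arrays of one line differed by as much as lines did. The difference of tumours from parental cells was 0.04 ± 0.11 (SE, adjusted p = 0.803), with a 95% interval of -0.20 to 0.27.

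Counted by tumour, 4 of 8 members were called against parental cells in T2, 5 in T3, 4 in T6 and 5 in T8. Over all genes the called share was 33.0% in T2, 37.9% in T3, 34.5% in T6 and 43.8% in T8. Of the 23 probe sets, 18 passed the filter and 5 did not. Tested probe set by probe set among 33341, 8 of the 18 differed between tumours and parental cells, 7 higher and 1 lower, beside 36.5% of all probe sets, and 12 differed among lines, beside 49.8%.

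**Figure D3:**
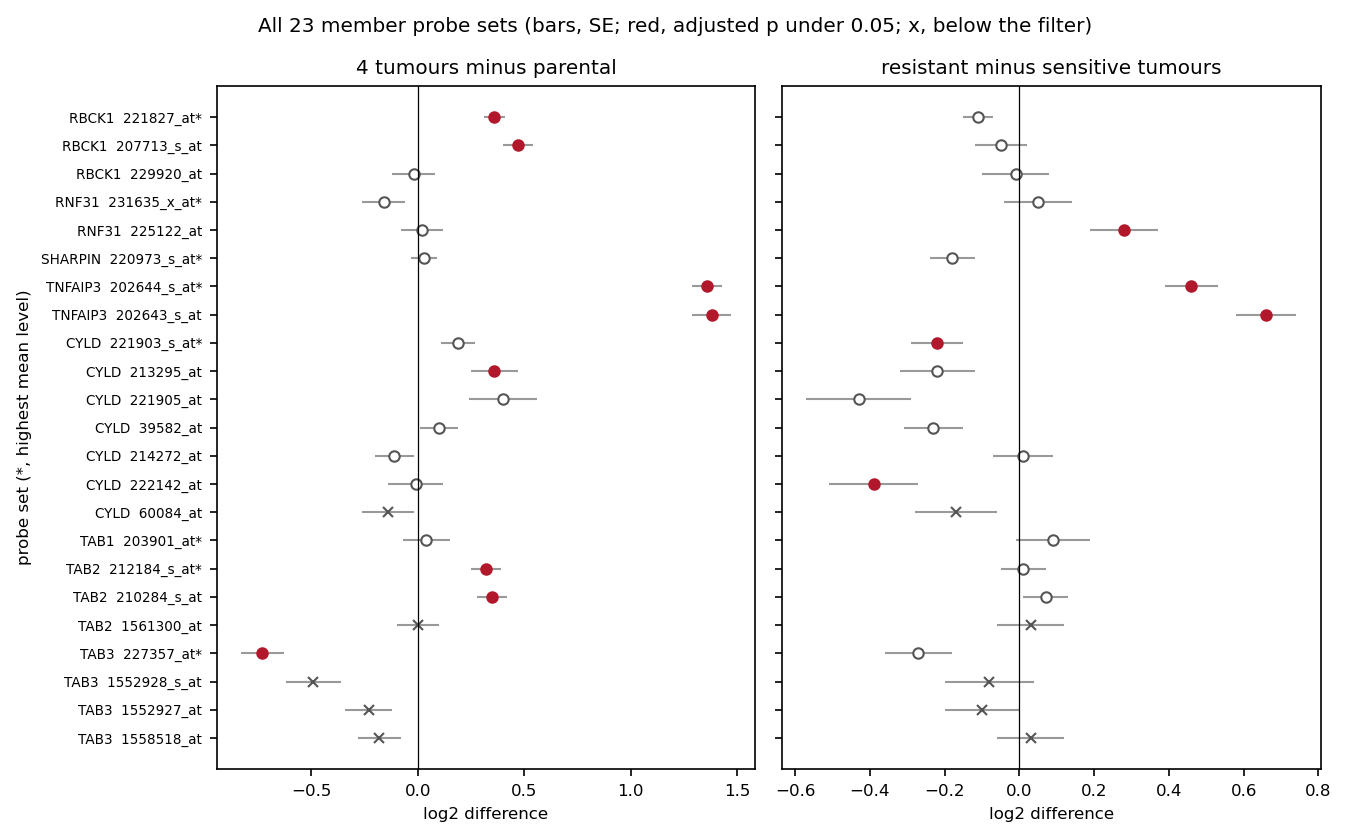
Log2 differences (horizontal axes) of all 23 member probe sets for the 4 tumours minus parental cells (left) and resistant minus sensitive tumours (right); points are limma estimates over probe sets, bars their SE, red marks an adjusted p under 0.05, crosses are probe sets below the filter, and an asterisk marks the one that stands for its gene. Both TNFAIP3 probe sets lie far right in both panels (1.36 and 1.38 on the left, 0.46 and 0.66 on the right). SHARPIN, called for response among genes, is open on the right, where both fit and adjustment ran over probe sets (limma, adjusted p = 0.0506).

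The labels divide the tumours into resistant and sensitive, and the question was which members differ with that response. With the tumour as replicate (2 against 2), limma called 0 of 8 members and 0 of 14929 genes. Without adjustment 661 genes fell under 0.05, and TNFAIP3 was the only member among them, at 0.46 ± 0.15 (SE, adjusted p = 0.894). The remaining results on response treat arrays as replicates and describe these 4 tumours alone. In that fit 3 of 8 members were called, 1 higher and 2 lower, beside 19.0% of all genes, 4.76% higher and 14.2% lower. With the line as a random block over the 8 tumour arrays the same fit called 0 members and 5 genes.

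TNFAIP3 was higher in the resistant tumours, with arrays from 9.15 to 9.58, than in the sensitive ones, with arrays from 8.78 to 9.08. The difference was 0.46 ± 0.06 (SE, adjusted p = 0.000298), a fold of 1.37, and 1.91% of tested genes differed by at least as much. All resistant arrays lay above all sensitive ones. The second probe set gave 0.66 ± 0.08 (adjusted p = 9.15e-05 over probe sets). The p was 0.821 after adjustment with the line as a random block.

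SHARPIN was lower in the resistant arrays, at 8.59 to 8.86, than in the sensitive arrays, at 8.88 to 8.95, a difference of -0.18 ± 0.05 (SE, adjusted p = 0.0381). The call was lost on leaving out any 1 of the 8 tumour arrays, with adjusted p-values from 0.0567 to 0.132, and with quantile normalisation repeated, at -0.10 (adjusted p = 0.267). CYLD differed by -0.22 ± 0.07 (adjusted p = 0.038), but its resistant arrays ran from 8.07 to 8.97 and enclosed the sensitive ones, at 8.66 to 8.82, since T2 was low and T3 high. That call was lost without T2 replicate 1, T3 replicate 1, T8 replicate 1 or either T6 array, with adjusted p-values from 0.0904 to 0.162. The dim probe set 222142_at gave -0.39 (adjusted p = 0.0394), 221905_at -0.43 (adjusted p = 0.0525) and 214272_at 0.01. Groups did not overlap for TNFAIP3 and SHARPIN only, 2 of 8 members against 10.4% of all genes, 3.97% above and 6.44% below.

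TAB3 differed between resistant and sensitive arrays by -0.27 ± 0.09 (SE, adjusted p = 0.0502) and RBCK1 by -0.11 ± 0.04 (adjusted p = 0.0893). Neither passed, although TAB3 did without T2 replicate 2, T3 replicate 2 or either parental array, at adjusted p-values from 0.0203 to 0.0479. For RNF31 the difference was 0.05 with a 95% interval of -0.14 to 0.24, for TAB1 0.09 with -0.12 to 0.31, and for TAB2 0.01 with -0.12 to 0.14. RNF31 depended on the probe set: 225122_at differed by 0.28 ± 0.09 (adjusted p = 0.0346). In all, 5 of the 18 probe sets were called for response, 3 higher and 2 lower, beside 15.9% of all probe sets, and 3 were called when no filter was set.

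Tested tumour against tumour over arrays, calls were made within the resistant pair. Between T2 and T3, 4 of 8 members were called, RBCK1 higher in T2 and SHARPIN, CYLD and TAB2 lower in T2, beside 30.8% of all genes. Between T6 and T8, 0 of 8 were called, beside 15.1% of all genes. Across the response labels, 2 members were called for T2 minus T6 (9.46% of all genes), 5 for T2 minus T8 (31.8%), 3 for T3 minus T6 (25.0%) and 2 for T3 minus T8 (18.4%).

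Other genes of the pathway were read from 5 lists, each by its counts. The shares of all genes to set beside each list were 25.5% higher and 16.8% lower against parental cells. For resistant minus sensitive tumours over arrays they were 4.76% higher and 14.2% lower. In the list of E2 enzymes, ubiquitin and linear chain editing, 5 of 11 genes were tested, and against parental cells 1 was higher and 2 lower, with a median of -0.02. UBE2N, the conjugating enzyme of lysine-linked chains, was higher by 0.36 ± 0.04 (SE, adjusted p = 1.02e-05). OTULIN, the enzyme that cuts only linear chains, was lower by 0.18 on the log2 scale, at -0.18 ± 0.06 (adjusted p = 0.0335), and UBB, a ubiquitin gene, at -0.10 ± 0.04 (adjusted p = 0.0387). Both lower calls were lost when each array was centred on its median. Resistant minus sensitive, SPATA2L, a relative of the CYLD bridge SPATA2, came to -0.31 ± 0.07 (adjusted p = 0.01) and VCP to -0.15 ± 0.04 (adjusted p = 0.0333).

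Of the partners in the receptor complex, 10 of 12 genes were tested, with 1 higher and 1 lower in tumours than in parental cells and a median of -0.04. RIPK1 and BIRC3, another cellular IAP, had no probe set of their own. BIRC2, a cellular IAP that Smac mimetics act on, was higher by 0.32 ± 0.05 (SE, adjusted p = 4.56e-05), with line means of 12.78, 12.44, 12.51 and 12.56 in T2, T3, T6 and T8 against 12.25 in parental cells. TRAF5, an adaptor related to TRAF2, was at -0.29 ± 0.08 (adjusted p = 0.0103). With quantile normalisation repeated 4 genes of this list were lower, and with centring none was. In resistant tumours CASP8, the initiator caspase, was at -0.30 ± 0.09 (adjusted p = 0.0283) and TRAF3 at -0.18 ± 0.06 (adjusted p = 0.036) relative to sensitive tumours, and with quantile normalisation repeated 0 were lower.

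Of kinases downstream of the chains, with some of their adaptors and regulatory subunits, 10 of 11 genes were tested. Against parental cells 3 were higher and 1 lower, with a median of 0.05. MAP3K7, which is TAK1 itself, differed by 0.35 ± 0.08 (SE, adjusted p = 0.00158). Its line means, 8.62 in T2, 9.27 in T3, 8.72 in T6, 8.98 in T8 against 8.55 in parental cells, stood in the same order as those of its adaptor TAB2. That order was not particular to this pair, since PPIL4 and KATNA1, which lie near TAB2 on chromosome 6, had it too. AZI2, an adaptor of TBK1, was higher by 0.61 ± 0.07 (adjusted p = 3.21e-06) and CHUK, a catalytic IKK subunit, by 0.34 ± 0.11 (adjusted p = 0.0182), while IKBKE differed by -0.32 ± 0.07 (adjusted p = 0.00236). In resistant against sensitive tumours TANK was at -0.30 ± 0.06 (adjusted p = 0.00289), IKBKG, the linear chain reader of IKK, at -0.21 ± 0.05 (adjusted p = 0.0159) and MAP2K4 at -0.19 ± 0.05 (adjusted p = 0.0271). The line mean of T3 was above that of T6 for TANK (8.65 against 8.63) and IKBKG (9.35 against 9.2), and T2 was the lowest tumour for both. With repeated quantile normalisation the list had 1 lower gene.

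A20 partners and other ubiquitin binders or editors had 12 of 13 genes tested, TNIP3 being below the filter, with 3 higher and 3 lower against parental cells and a median of -0.01. RNF11, a partner in the A20 editing complex, was higher by 0.57 ± 0.08 (SE, adjusted p = 5.91e-05), with 10.95, 11.10, 10.92 and 10.89 in T2, T3, T6 and T8 against 10.40 in parental cells. TAX1BP1, another A20 partner, went the opposite way at -0.33 ± 0.06 (adjusted p = 0.000202). The ubiquitin binders TNIP2 (0.34 ± 0.05, adjusted p = 0.000141) and OPTN (-0.38 ± 0.05, adjusted p = 4.01e-05) also differed in sign, as did the deubiquitinases USP4 (0.34 ± 0.06, adjusted p = 0.000363) and OTUD7B (-0.24 ± 0.06, adjusted p = 0.006). For response, N4BP1 alone was called, at 0.26 ± 0.08 (adjusted p = 0.0384), and with each array centred no gene of this list was higher.

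NF-kB feedback genes, the class to which TNFAIP3 belongs by its regulation, had 9 of 10 tested, with 2 higher and 2 lower against parental cells and a median of 0.06. NFKB1 was higher by 0.33 ± 0.06 (SE, adjusted p = 0.000357) and NFKB2 by 0.31 ± 0.07 (adjusted p = 0.00191), both precursors of NF-kB subunits. RELB differed by -0.30 ± 0.10 (adjusted p = 0.0225) and TNFAIP2 by -0.26 ± 0.07 (adjusted p = 0.00683), and neither was called with each array centred. NFKBIA, whose promoter is printed above, had line means of 10.51, 10.15, 10.54 and 10.45 in T2, T3, T6 and T8 against 10.28 in parental cells.

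Between resistant and sensitive tumours, where TNFAIP3 was higher, 0 of 9 NF-kB feedback genes were higher and 5 were lower, beside 4.76% higher and 14.2% lower among all genes. The list's median was -0.17 and that of all genes -0.022. TNFAIP2 was at -0.35 ± 0.06 (SE, adjusted p = 0.00136), the adhesion molecule ICAM1 at -0.31 ± 0.06 (adjusted p = 0.00295) and NFKB2 at -0.29 ± 0.06 (adjusted p = 0.00515). The other pair, named after their values were seen, were the inhibitors NFKBIE at -0.27 ± 0.05 (adjusted p = 0.00387) and NFKBIA at -0.17 ± 0.05 (adjusted p = 0.0242). Line means of TNFAIP2 were 9.13 in T2, 8.37 in T3, 9.16 in T6 and 9.04 in T8. In the same order NFKB2 had 8.23, 7.64, 8.35 and 8.1, and ICAM1 had 8.27, 8.6, 8.46 and 9.02. In these genes and in NFKBIA a resistant tumour lay above a sensitive one. NFKBIE was lower in both resistant tumours, at 8.68 and 8.38 against 8.77 and 8.83. For NFKBIA the sign depended on the probe set, with 0.01 on the mean over its probe sets (adjusted p = 0.891). Over the alternatives the count of lower genes ran from 0 to 5.

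**Figure D4:**
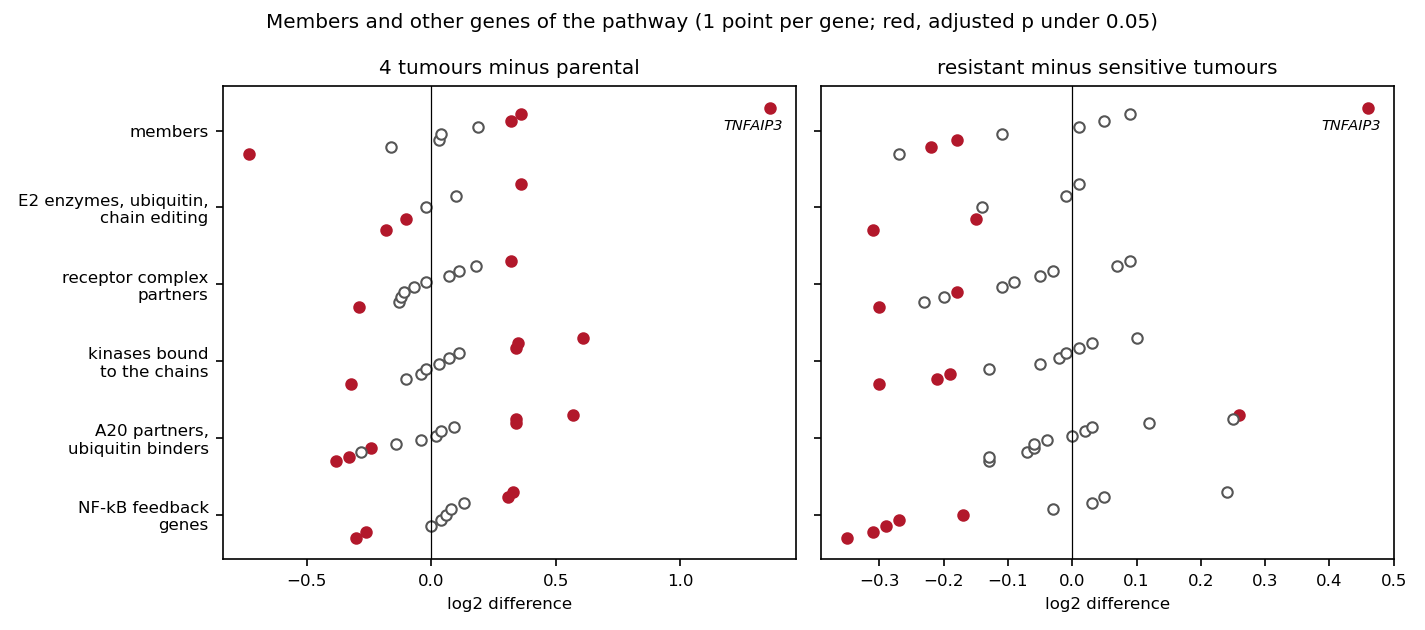
Log2 differences (horizontal axes) of the members and of the genes of 5 pathway lists, for the 4 tumours minus parental cells (left) and resistant minus sensitive tumours (right); each point is a tested gene and red marks an adjusted p under 0.05 in limma over all genes. TNFAIP3 lies outermost in both panels, at 1.36 and 0.46, and 5 NF-kB feedback genes lie left of 0 in red on the right.

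For the 4 members called among lines whose line means ranged over at least log2 0.5, the genes with the most similar pattern were sought by Pearson correlation over the 10 arrays, which share lines and libraries. TNFAIP3 was most like MAN1A1 (0.986), KLF5 (0.983) and C6orf141 (0.980), of which the first and last lie on chromosome 6 as TNFAIP3 does. MAN1A1 had line means of 8.26, 8.36, 8.01 and 7.83 in T2, T3, T6 and T8 against 6.28 in parental cells. TAB2, also on chromosome 6, was most like ANKRD46 (0.990), RMND1 (0.985) and NDUFAF4 (0.984), the last 2 on chromosome 6. TAB3 was most like PAXIP1-DT (0.980), IPO5P1 (0.964) and STMP1 (0.959), none of them on the X chromosome where TAB3 lies. CYLD was most like HMGB3 (0.960), NUPR1 (0.951) and MAPRE2 (0.948), of which NUPR1 lies on chromosome 16 as CYLD does. Whether such genes share a chromosome more often than other genes was not tested.

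The 5 nearest tested genes on each side of a member, in RefSeq order, were then read beside it, a step chosen after member values were seen. Around TNFAIP3, 7 of 10 neighbours were higher in tumours than in parental cells and 0 lower, with a median of 0.28, beside 25.5% and 16.8% of all genes. They included the receptor gene IFNGR1 (0.37), PERP (0.36), ARFGEF3 (0.43) and the non-coding WAKMAR2 (0.63), all smaller than the 1.36 of TNFAIP3 itself. WAKMAR2, next to TNFAIP3, had line means of 3.73, 5.88, 3.95 and 4.49 in T2, T3, T6 and T8 against 3.89 in parental cells, so it stood out in T3, the only line in which it reached the filter. Without it 6 of 9 neighbours were higher in tumours. In resistant against sensitive tumours 5 of the 10 were higher and 0 lower, or 4 of 9 without WAKMAR2, beside 4.76% and 14.2% of all genes, and the count of higher genes ran from 0 to 6 over the alternatives. By line means only PEX7 and PERP were higher in both resistant tumours than in both sensitive ones. HEBP2 was lower in T2 than in T6 (10.85 against 10.94), and ARFGEF3 was lower in T3 than in T6 (7.51 against 7.55).

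Around TAB2, 5 of 10 neighbours were higher in tumours and 0 lower, beside 25.5% and 16.8% of all genes. The higher ones included SAMD5 (2.50), UST (1.03) and SASH1 (0.51). Around TAB3 on the X chromosome, 7 of 10 were lower and 0 higher, with a median of -0.43 beside -0.73 for TAB3. Those with the largest differences were IL1RAPL1 (-1.08), SRPX (-0.86), POLA1 (-0.85) and ZFX (-0.59). Between the resistant tumours TAB3 and its neighbours differed in sign. T2 minus T3 was -0.28 for TAB3, which was not called, and had a median of 0.16 over the neighbours, 3 of them called higher and 0 lower. The counts over the alternatives ran from 5 to 8 higher around TNFAIP3, 3 to 6 higher around TAB2 and 6 to 7 lower around TAB3. RBCK1 had 3 neighbours higher and 1 lower, RNF31 4 and 1, SHARPIN 2 and 1, CYLD 1 and 0, and TAB1 3 and 0.

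**Figure D5:**
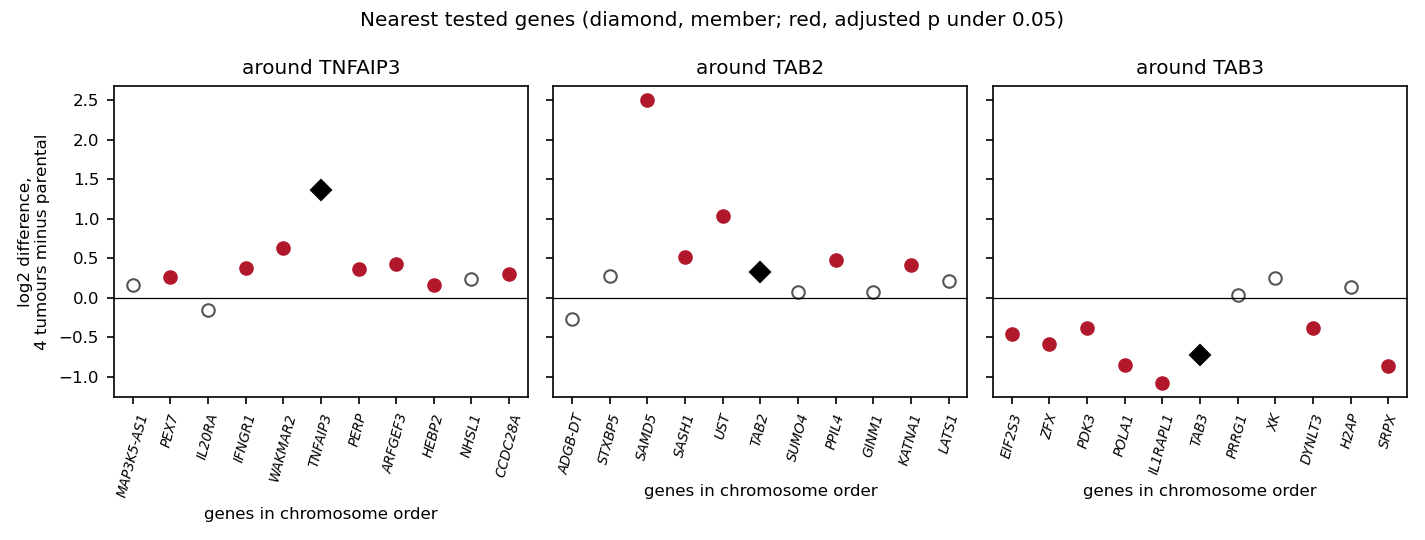
Log2 difference of the 4 tumours minus parental cells (vertical axis) for TNFAIP3, TAB2 and TAB3 (black diamonds) and the 5 nearest tested genes on each side in chromosome order (circles, red for an adjusted p under 0.05). Called neighbours of TNFAIP3 and TAB2 lie above 0, up to 2.50 for SAMD5, and those of TAB3 below 0, down to -1.08 for IL1RAPL1.

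Markers of other cell types were read on the same arrays, and their part in the member values was not tested. Host cells would be mouse, on arrays built for human transcripts. Averaged over 7 leukocyte and macrophage markers, levels were 6.19 to 6.53 on resistant, 6.27 to 6.42 on sensitive and 6.57 to 6.64 on parental arrays, with PTPRC below log2 5 on all arrays. Over 4 endothelial markers they were 5.02 to 5.21, 5.19 to 5.57 and 5.06 to 5.08, and over 5 fibroblast and pericyte markers 6.67 to 6.82, 6.60 to 6.72 and 6.81 to 6.88. Against parental cells 25.5% of all genes were higher and 16.8% lower. There, 0 of 6 tested leukocyte markers were higher and 3 lower. Of the endothelial markers 2 of 4 were higher and 0 lower, and of the fibroblast markers 0 of 5 were higher and 2 lower. Between resistant and sensitive tumours over arrays 4.76% of all genes were higher and 14.2% lower. In that comparison 2 of 6 leukocyte markers were higher and 2 lower. Of the endothelial markers 2 of 4 were higher and 2 lower, and of the fibroblast markers 1 of 5 was higher and 0 lower. The largest of these differences were -1.27 ± 0.11 (SE, adjusted p = 3.21e-06) for CDH5, an endothelial cadherin, and -0.74 ± 0.05 (adjusted p = 3.5e-07) for LAPTM5, a leukocyte gene, which stood at line means of 10.14, 9.20, 10.22 and 10.62 in T2, T3, T6 and T8 against 10.66 in parental cells.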

How the data were processed

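Log2 intensity values of 54675 probe sets on 10 arrays were used as the authors deposited them. RMA, affy and limma are named per the submitters' processing notes, without versions. RMA corrects background, quantile-normalises and summarises probes, which pulls small signals together. Of the probe sets, 62 controls were left out, and of the rest 41091 had 1 symbol in the platform annotation, 1801 several and 11721 none. Symbols were updated by Entrez number against RefSeq for 41037. The probe set of highest mean stood for each of 19775 genes, and 14929 reached log2 5 on at least 2 arrays.

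limma 3.58.1 under R 4.3.3 (lmFit, eBayes with trend) was fitted with 1 coefficient per line over all arrays (5 residual degrees of freedom, prior 9.39). The response was fitted again on line means with the tumour as replicate (2 residual degrees of freedom, prior 2.73). P-values were adjusted by Benjamini-Hochberg over all genes or probe sets, and intervals are 95% limits of the moderated fit. The code was tested on simulated data.

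Named genes were all members; of each list and comparison, the called genes with the largest differences, at most 3 per direction; and the 3 genes most alike to each wide-ranging called member. Alternatives covered normalisation, filter, choice of probe sets, the trend, the replicate block, the line as a random block and each array left out. The members and lists were chosen with earlier results of these data known. Precision is limited by the number of arrays.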

Additional observations from a re-analysis of the deposited data

Results flagged for a closer look

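Several members differed between single tumours, each tested directly in limma over all genes with arrays as replicates. For T2 minus T3, where 30.8% of all genes were called, RBCK1 came to 0.27 ± 0.06 (SE, adjusted p = 0.00292), SHARPIN to -0.24 ± 0.08 (adjusted p = 0.0308), CYLD to -0.72 ± 0.10 (adjusted p = 4.91e-05) and TAB2 to -0.51 ± 0.09 (adjusted p = 0.000286), although both tumours are labelled resistant. For T2 minus T6, where 9.46% of genes were called, SHARPIN came to -0.27 ± 0.08 (adjusted p = 0.0431) and CYLD to -0.60 ± 0.10 (adjusted p = 0.00134). T2 minus T8 (31.8% of genes called) gave -0.32 ± 0.08 for SHARPIN (adjusted p = 0.00593), -0.56 ± 0.10 for CYLD (adjusted p = 0.000558), 0.44 ± 0.09 for TNFAIP3 (adjusted p = 0.00192), -0.35 ± 0.09 for TAB2 (adjusted p = 0.00675) and -0.44 ± 0.13 for TAB3 (adjusted p = 0.0148). T3 minus T6 (25.0% of genes called) gave -0.29 ± 0.06 for RBCK1 (adjusted p = 0.00237), 0.48 ± 0.09 for TNFAIP3 (adjusted p = 0.00122) and 0.37 ± 0.09 for TAB2 (adjusted p = 0.00491). T3 minus T8 (18.4% of genes called) gave -0.20 ± 0.06 for RBCK1 (adjusted p = 0.0358) and 0.69 ± 0.09 for TNFAIP3 (adjusted p = 0.000127). No member was called for T6 minus T8, where 15.1% of genes were called.

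The probe set 220788_s_at, annotated to RNF31 and IRF9 together and therefore no member, was higher in the tumours by 0.51 ± 0.10 (SE, adjusted p = 0.000761). It had 6.94 and 6.86 in T2, 7.04 and 7.11 in T3, 7.05 and 7.14 in T6, and 7.25 and 7.12 in T8, against 6.74 and 6.37 in parental cells. Its signal cannot be assigned to either gene, and the 2 probe sets of RNF31 alone did not differ in this comparison. Of 16 groups of 4 resistant or sensitive arrays, 0 had an array past Dixon's limit. Each group joins 2 lines, whose difference widens its range, so the check could miss an outlying array. The parental arrays were not checked.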

How the results depend on the processing

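For the 4 tumours against parental cells, 4 of 8 members were called, and 3 to 5 were called over the alternatives and on leaving out each array in turn. TNFAIP3, TAB3 and RBCK1 kept their call and direction in that comparison under all alternatives run, and TAB2 under all but the one without parental replicate 2, wherever a tested probe set was left. Between resistant and sensitive tumours over arrays, 3 members were called, against 1 with quantile normalisation repeated, 1 without less specific probe sets, 1 with no trend and 0 with the line as a random block (a correlation of 0.538 within lines). The call without less specific probe sets was RNF31 (0.28, limma, adjusted p = 0.0347). In that setting TNFAIP3 and SHARPIN had no probe set left, and CYLD lost its call (adjusted p = 0.121). Leaving out 1 array gave 1 to 4. With the tumour as replicate 0 were called throughout. For any difference among lines, 6 of 8 were called, 3 without less specific probe sets, which leaves fewer members to test, and 5 to 6 on leaving out 1 array. Against parental cells, without less specific probe sets, T2 gave 2 in place of 4, T3 gave 3 in place of 5 and T8 gave 3 in place of 5. With the mean over probe sets T3 gave 3 and T6 gave 2 in place of 4. Leaving out 1 array gave 3 to 4 in T2, 4 to 5 in T3, 3 to 4 in T6 and 4 to 5 in T8. Probe sets called were 8, and 9 with no filter. The cause of these shifts was not tested.

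With the replicate number as a block, 6 members were called among lines, 3 for response, 4 for the tumours together, and 4, 5, 4 and 5 for T2, T3, T6 and T8, as without it. The numbers did not pair the samples throughout: over the 10 pairs of lines, deviations of same-numbered arrays correlated at -0.39 to 0.50. Of these pairs 4 were over 0.1 and 6 were below 0. A block by replicate number cannot take up an array effect shared under other numbering, and such an effect was not tested.

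Members that were not called also took both signs over the alternatives: for the tumours against parental cells RNF31 ran from -0.20 to 0.02, SHARPIN from -0.06 to 0.10 and TAB1 from -0.10 to 0.18. Of the list genes, NFKBIA (resistant minus sensitive, -0.17) came to 0.01 with the mean over probe sets (adjusted p = 0.891) and 0.20 without less specific probe sets (adjusted p = 0.206), and NFKBIB (0.03) to -0.32 without less specific probe sets (adjusted p = 0.0447). The share of all genes called for response ran from 0.0335% to 23.7% and for the tumours against parental cells from 27.5% to 49.0%. Signals near log2 5, such as the dim probe sets of CYLD, TAB2 and TAB3, limit what can be seen.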

Other observations

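A gene of the receptor complex outside the members, chosen after its values were seen, was split between the resistant tumours as CYLD was. XIAP, an IAP protein that binds Smac mimetics, had line means of 9.23 in T2, 10.22 in T3, 9.88 in T6 and 10.04 in T8 against 9.66 in parental cells. It differed from parental cells by -0.43 ± 0.13 in T2 (SE, limma, adjusted p = 0.0153) and by 0.56 ± 0.13 in T3 (adjusted p = 0.00258).

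Near SHARPIN, 5 of its 10 nearest tested genes were lower in resistant than in sensitive tumours over arrays and 0 were higher, beside 14.2% lower among all genes, and the count ran from 0 to 5 over the alternatives. DGAT1 (-0.30), HSF1 (-0.28), EXOSC4 (-0.22), MAF1 (-0.20) and GPAA1 (-0.14) were the 5. By line means only DGAT1 and GPAA1 were lower in both resistant tumours than in both sensitive ones. Resistant T3 lay above sensitive T6 for HSF1 (9.83 against 9.65), EXOSC4 (10.94 against 10.8) and MAF1 (10.75 against 10.53).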
